A study of Mus musculus with 20 samples.

Results

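Fibro-adipogenic progenitors are the resident mesenchymal cells of skeletal muscle, and 10 of the 55416 genes listed in the count table were followed as their markers and those of muscle fibroblasts: Pdgfra, Pdgfrb, Cd34, Ly6a, Dpp4, Pi16, Clec3b, Gsn, Hic1 and Osr1. Their names were set without a rule on their measured values, although earlier results of these data were known when they were chosen, and all 10 were among the 14471 genes that passed the filter on low counts. RNA came from the quadriceps of 20 wild-type male C57BL/6J mice, 26-28 months old, taken 3 h after a single intramuscular injection. The study states that the mice had been fasted. Control mice (n = 10) received 50 uL of 0.9% saline, and secretome mice (n = 10) received 50 uL of secretome. Secretome is the material released into culture by a pluripotent stem cell line, here partly differentiated human embryonic stem cells. The study describes it as diluted in saline for injection. Every mouse was old and each muscle was injected, so the control carries the injection itself, and no uninjected or young muscle was analysed here. The label of each library also carries a running number, 1 to 10 in control and 11 to 20 in secretome.

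Fibro-adipogenic progenitors lie between the muscle fibers, carry the PDGF receptor alpha on their surface, and do not themselves form fibers. After injury they divide, signal to satellite cells and immune cells and lay down matrix, and they can give rise to fibroblasts and adipocytes, which is how fat and fibrous tissue form in muscle. Progenitors that express Dpp4 and Pi16 are found around vessels and in the fascia, whereas other states sit between the fibers.

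The 20 libraries held 13286983 to 22987237 counts on genes, and the mean total was 17333010 in control and 19216742 in secretome muscle (permutation test, two-sided, p = 0.0853). The muscle fiber genes Ttn, Myh4, Acta1 and Ckm were abundant in every library, with at least 12316 CPM (counts relative to the library total, scaled by a TMM factor) for Ckm, the lowest of the 4. All 6 lymphocyte markers listed fell short of the filter. Titin transcripts (Ttn) made up 7.02% to 11.03% of the counts in libraries 1 to 5, all control, 16.4% to 21.1% in libraries 6 to 15, 5 of each treatment, and 14.2% to 14.7% in libraries 16 to 20, all secretome. What the library numbers stand for is not given in the sources used here. Each comparison is therefore given over all 20 muscles and then within libraries 6 to 15, where both treatments are present. Between libraries 16 to 20 and libraries 1 to 5, treatment and library number cannot be told apart. In whole muscle, fewer cells of a type and less RNA per cell cannot be told apart either.

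The 5′ ends of 4 markers are shown because Pdgfra, Gsn and Hic1 varied together among libraries 6 to 15, as described further on, while the relation of Dpp4 with Pdgfra did not pass the test there. They come from RefSeq (mouse build GRCm38.p6), which listed 6 of the 10 markers among the promoters given, and each runs from 250 bases before to 50 bases after an annotated start. Gsn has 3 such starts and Hic1 has 2, and the first listed is shown. Capitals mark 1 of 3 motifs searched on both strands, GGGCGG for the GC box, CCAAT for the box of that name and TATAAA for the TATA box, and no match shown overlaps another. The windows are Pdgfra at chr5:75152001-75152300 on the plus strand, Gsn at chr2:35256109-35256408 on the plus strand, Hic1 at chr11:75170206-75170505 on the minus strand and Dpp4 at chr2:62412182-62412481 on the minus strand.
Pdgfra: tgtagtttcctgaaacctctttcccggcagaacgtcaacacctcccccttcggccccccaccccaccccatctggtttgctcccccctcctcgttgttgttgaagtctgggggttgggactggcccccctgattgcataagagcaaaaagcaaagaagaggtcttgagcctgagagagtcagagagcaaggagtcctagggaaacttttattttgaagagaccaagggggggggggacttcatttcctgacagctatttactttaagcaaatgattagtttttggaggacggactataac
Gsn: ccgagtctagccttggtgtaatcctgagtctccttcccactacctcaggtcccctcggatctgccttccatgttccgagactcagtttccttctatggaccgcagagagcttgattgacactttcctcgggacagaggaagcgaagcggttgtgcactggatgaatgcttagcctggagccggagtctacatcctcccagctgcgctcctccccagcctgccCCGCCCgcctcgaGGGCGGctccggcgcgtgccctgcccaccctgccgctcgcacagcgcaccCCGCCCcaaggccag
Hic1: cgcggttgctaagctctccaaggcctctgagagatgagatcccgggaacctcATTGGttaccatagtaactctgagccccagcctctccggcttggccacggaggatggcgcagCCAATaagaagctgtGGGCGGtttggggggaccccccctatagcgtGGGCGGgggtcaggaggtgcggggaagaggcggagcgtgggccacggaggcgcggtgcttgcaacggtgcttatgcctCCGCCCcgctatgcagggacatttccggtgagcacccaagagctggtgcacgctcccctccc
Dpp4: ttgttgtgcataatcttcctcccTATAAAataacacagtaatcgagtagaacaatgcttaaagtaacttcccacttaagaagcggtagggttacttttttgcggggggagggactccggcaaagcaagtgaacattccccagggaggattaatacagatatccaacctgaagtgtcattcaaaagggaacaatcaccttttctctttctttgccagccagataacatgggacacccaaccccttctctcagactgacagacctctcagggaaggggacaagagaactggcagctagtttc
The GC box was present in 35.7% of 32851 mouse promoters of this length, the CCAAT box in 37.4% and the TATA box in 13.6%. Of the 9 windows listed for the markers, 5 held a GC box, 3 of them of Gsn and 2 of Hic1, so that the other 4 genes had none. A CCAAT box was present in 4 windows and a TATA box in 1, that of Dpp4, where it began 227 bases before the annotated start. The Pdgfra window held none of these letters and 5 CpG dinucleotides, and the Dpp4 window held 4 CpG. The Gsn and Hic1 windows shown held 20 CpG and 3 GC boxes each, beside a median of 7 CpG over all promoters. The Gsn windows not shown held 2 and 16 CpG, and the Hic1 window not shown held 29. A match of letters is a description of the window and not a bound site.

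The level of the 10 markers spanned a wide range. Per kilobase of exon, Gsn was highest at 156 CPM per kb over the 20 muscles, followed by Ly6a at 25.1, Clec3b at 12.2, Pdgfrb at 6.00, Pdgfra at 4.88, Cd34 at 4.45, Pi16 at 2.24, Osr1 at 1.80, Hic1 at 1.54 and Dpp4 at 0.672. Pdgfra and Cd34 lay close together, since the span over muscles was 2.76 to 9.04 CPM per kb for Pdgfra and 2.74 to 9.06 CPM per kb for Cd34. Gsn encodes gelsolin, an actin-severing protein that is also secreted, and it is not particular to fibroblasts. The fewest counts per library were those of Dpp4, at 23 to 183, and Osr1, at 33 to 151, and Gsn had the most, at 2647 to 18177.

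Over all 20 muscles, each of the 10 markers had a lower fitted level in secretome than in control muscle, but no marker passed a 5% false discovery rate. The direction did not hold in every fit. Dpp4 turned to 0.10 with voom and 0.076 with the replicate block. A term for the 3 library ranges turned Cd34 to 0.16, Dpp4 to 0.36 and Osr1 to 0.084. With that term, treatments were compared only inside the range that held both, because each other range held 1 treatment only. Those 3 values therefore largely restate the comparison within that range, given further on, and are not a separate check. The medians of Dpp4 also went the other way, at 2.25 CPM in control and 4.17 CPM in secretome muscle. Only 2 of the 10 secretome muscles lay below the control median of Dpp4. The median log2 fold change was -0.39 for the markers and -0.03 for all genes tested, and 55.9% of all genes lay below 0. Of all 14471 genes, 0.00691% (1 gene, Plxnb2, named after its value was seen) passed in this comparison with edgeR's quasi-likelihood test and Benjamini-Hochberg adjustment. Before adjustment, 2 of the 10 markers had a p under 0.05, both lower with secretome, beside 9.21% of all genes that were lower and 6.52% that were higher at that p. DESeq2 and voom also placed 0 of the 10 past the false discovery rate. Each library is taken here as 1 mouse, since the study injected 1 leg per animal, and the p-values measure the spread between these samples.

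The marker with the smallest p was Hic1, a transcriptional repressor that marks quiescent mesenchymal progenitors in muscle. Its level was 3.50 CPM at the lowest, 5.52 at the median and 15.8 at the highest in control muscle, and 3.56, 4.57 and 5.45 CPM in secretome muscle. The groups overlapped, although all 10 secretome muscles lay below the control median. The log2 fold change was -0.62 (SE 0.217, unadjusted p = 0.00887, adjusted p = 0.198 by edgeR's quasi-likelihood test). Control replicate 2 was the highest muscle, and without it the fold change was -0.40.

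Pdgfrb, the PDGF receptor beta, is shared by fibroblasts and the pericytes that wrap capillaries. Its level ran from 25.3 to 44.3 CPM in control muscle with a median of 36.5, and from 24.3 to 37.0 CPM in secretome muscle with a median of 30.6. The log2 fold change was -0.22 (SE 0.0993, unadjusted p = 0.0332, adjusted p = 0.278 by edgeR's quasi-likelihood test), and the groups overlapped over most of their range.

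For the remaining 8 markers the groups overlapped as well. Pdgfra, the receptor that defines these progenitors, had a mean of 55.0 ± 22.2 CPM in control and 42.8 ± 13.1 CPM in secretome muscle (SD, n = 10 each), a log2 fold change of -0.36 (SE 0.215). Pi16, a secreted peptidase inhibitor, gave the lowest value of the 10 at -0.64 (SE 0.367), with 17.3 ± 11.1 against 11.1 ± 5.30 CPM. Gsn gave -0.50 (SE 0.267), Clec3b, which encodes tetranectin, -0.41 (SE 0.254) and Cd34, a sialomucin of progenitors and endothelium, -0.39 (SE 0.224). Osr1, a transcription factor of embryonic and activated progenitors, gave -0.38 (SE 0.243), Dpp4, a cell-surface peptidase, -0.24 (SE 0.399), and Ly6a, which encodes the stem cell antigen Sca-1, -0.21 (SE 0.161). The adjusted p of these 8 markers lay between 0.365 and 0.798 (edgeR's quasi-likelihood test). Leaving out 1 control muscle moved the value of Ly6a to -0.05 (without control replicate 3) and that of Dpp4 to -0.01 (without control replicate 4). Control replicates 1 and 5 had Dpp4 levels near that of control replicate 4, so no single muscle carried the Dpp4 value. Ly6a belongs to a family of similar neighboring genes, so its counts may share reads with its relatives.

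**Figure D1:**
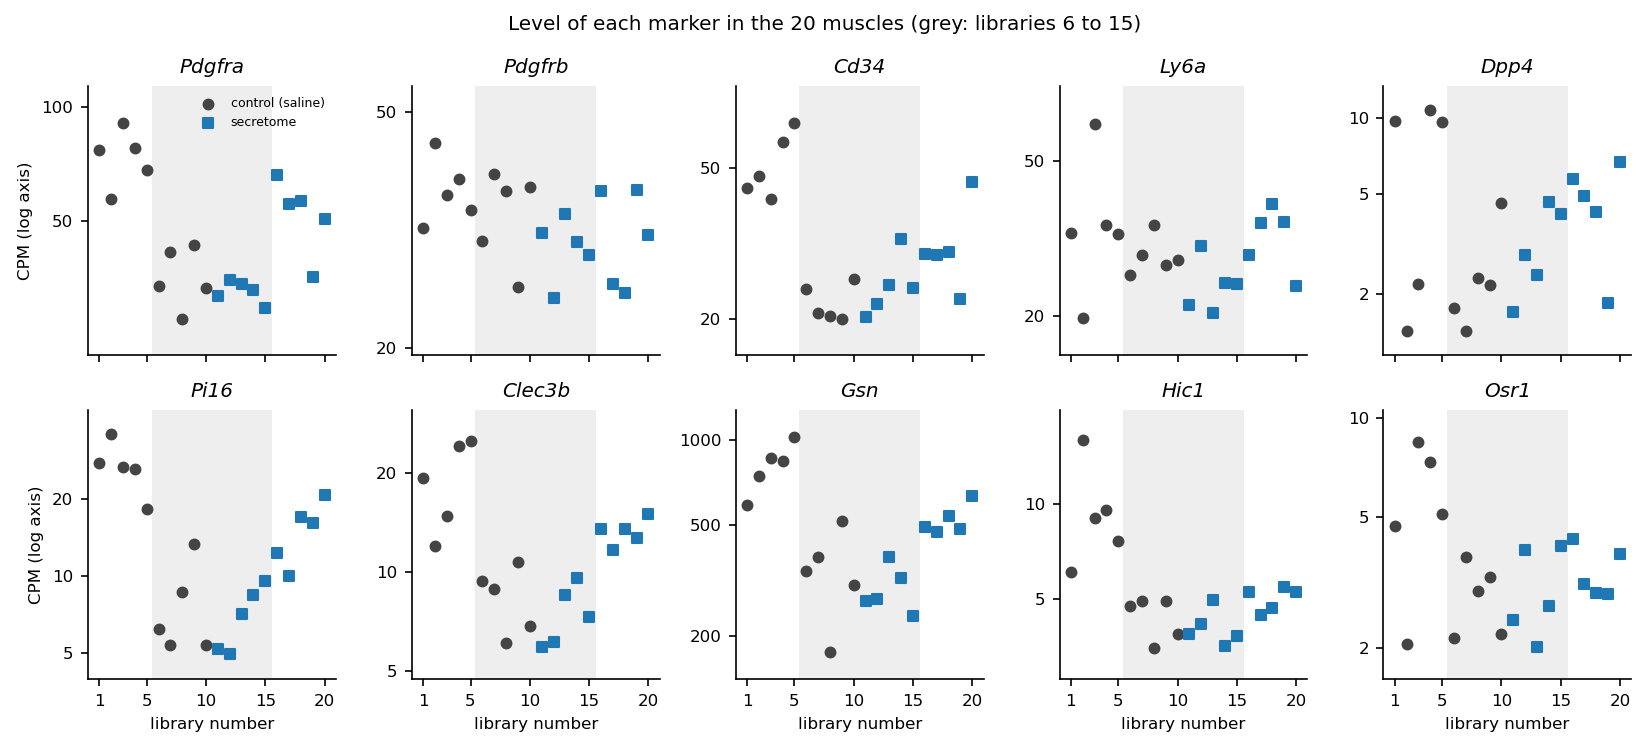
Level of each of the 10 markers in CPM (log axis, with its own range per panel) against the library number, 1 point per muscle, circles for control and squares for secretome, with libraries 6 to 15 shaded. Control libraries 1 to 5 sit above control libraries 6 to 10 in every muscle for Pdgfra, Cd34, Pi16, Clec3b, Gsn and Hic1, whereas the treatments overlap inside the shaded range for all 10 markers.

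Within libraries 6 to 15 (n = 5 per treatment), the markers split in direction. 7 of the 10 had a log2 fold change below 0 and 3 above 0 (52% of all genes lay below 0), their median was -0.12 against -0.01 for all genes, and 0 of 10 had an unadjusted p under 0.05, where 9.90% of all genes did. No gene of the 14471 passed the false discovery rate (0.00%) with edgeR's quasi-likelihood test in these 10 muscles, and 0 of the 10 markers did with DESeq2. Ly6a came nearest at -0.24 (SE 0.122, unadjusted p = 0.0725, edgeR's quasi-likelihood test). The Ly6a levels were 25.5, 28.6, 34.2, 27.0 and 27.8 CPM in control replicates 6 to 10 and 21.4, 30.3, 20.3, 24.3 and 24.1 CPM in secretome replicates 1 to 5. Of the 5, 4 secretome muscles lay below all 5 control muscles, and secretome replicate 2 lay within them.

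The other 9 markers differed less clearly within libraries 6 to 15, where the treatments overlapped for each of them. Pdgfra was 35.9 ± 6.39 CPM in control and 32.7 ± 2.12 CPM in secretome muscle (SD, n = 5 each), a log2 fold change of -0.12 (SE 0.117). Hic1 was 4.41 ± 0.670 against 4.09 ± 0.550 CPM, at -0.10 (SE 0.166). Gsn was at -0.21 (SE 0.229), Pdgfrb at -0.18 (SE 0.132), Clec3b at -0.15 (SE 0.184) and Pi16 at -0.13 (SE 0.270). The 3 markers above 0 were Dpp4 at 0.37 (SE 0.340), Cd34 at 0.17 (SE 0.132) and Osr1 at 0.10 (SE 0.248). Pi16 changed direction to 0.16 without control replicate 9, and Osr1 to -0.01 without secretome replicate 2 and to -0.04 without secretome replicate 5.

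Between secretome libraries 16 to 20 and control libraries 1 to 5 (n = 5 each), all 10 markers were again below 0, as were 54.6% of all genes, with a median log2 fold change of -0.58 against -0.04 for all genes. 7 of the 10 markers had an unadjusted p under 0.05 and were lower, beside 9.19% of all genes, and none of the 14471 genes (0.00%) passed the false discovery rate with edgeR. They were Hic1 at -0.93 (SE 0.235), Pi16 at -0.82 (SE 0.214), Cd34 at -0.71 (SE 0.193), Osr1 at -0.68 (SE 0.310), Gsn at -0.63 (SE 0.161), Clec3b at -0.52 (SE 0.195) and Pdgfra at -0.48 (SE 0.166). Dpp4 was at -0.53 (SE 0.521), Pdgfrb at -0.25 (SE 0.152) and Ly6a at -0.16 (SE 0.242). Hic1 was 6.09, 15.8, 9.00, 9.57 and 7.65 CPM in control replicates 1 to 5 and 5.27, 4.46, 4.68, 5.45 and 5.27 CPM in secretome replicates 6 to 10. Hic1 was the 1 marker whose values did not overlap between these sets. Its control libraries all lay above its secretome libraries, as for 2.34% of all genes. Treatment and library number cannot be told apart in this comparison, and both comparisons of 5 against 5 are subsets of the 20 muscles.

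**Figure D2:**
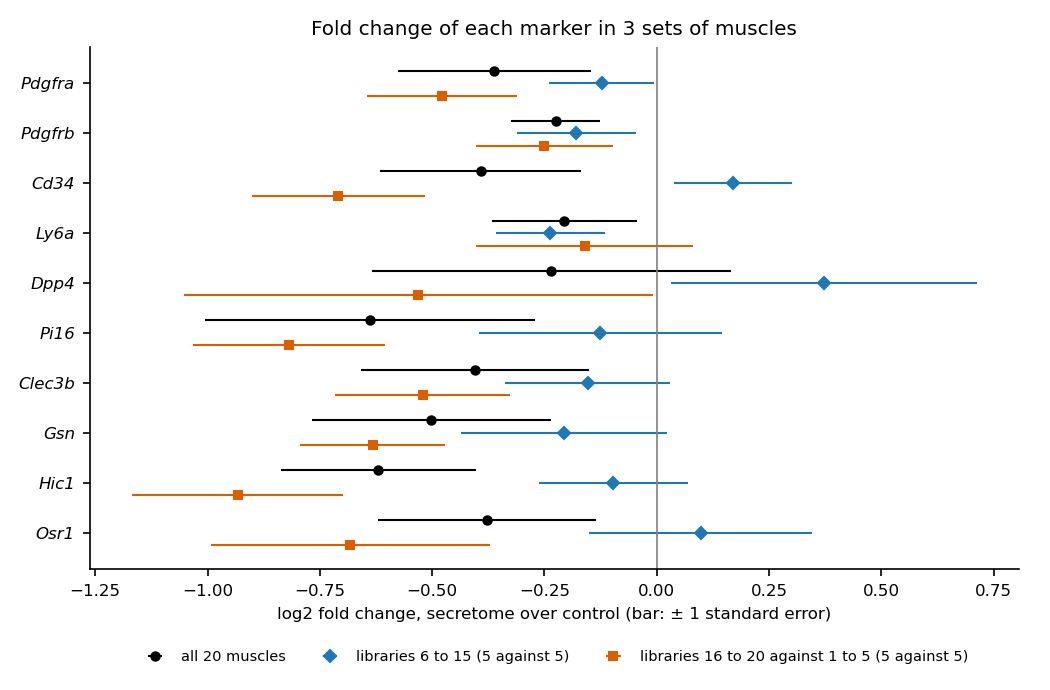
Log2 fold change of secretome over control for the 10 markers, with bars of 1 standard error, over all 20 muscles (circles), within libraries 6 to 15 (diamonds) and between libraries 16 to 20 and 1 to 5 (squares). The diamonds lie between -0.24 and 0.37 and spread around 0, and the squares lie between -0.93 and -0.16.

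The difference between those fold changes was tested as an interaction. It was above 0 for 9 of the 10 markers, with a median of 0.55 against 0.02 for all genes, and 2 markers had an unadjusted p under 0.05, both above 0, beside 5.59% of all genes above 0 and 5.51% below 0 at that p. Below 0 lay 48.3% of all genes. Cd34 differed by 0.87 (SE 0.239, unadjusted p = 0.00149, adjusted p = 0.169) and Hic1 by 0.83 (SE 0.282, unadjusted p = 0.00787, adjusted p = 0.256) in edgeR's quasi-likelihood test. Neither passed the false discovery rate, which 0.0553% of all genes did, and Ly6a was the marker below 0, at -0.07 (SE 0.292). The Cd34 levels were 44.2, 47.8, 41.4, 58.7 and 66.0 CPM in control replicates 1 to 5 and 24.0, 20.6, 20.3, 19.98 and 25.4 CPM in control replicates 6 to 10. In secretome muscle they were 20.2, 21.8, 24.6, 32.4 and 24.0 CPM in replicates 1 to 5 and 29.7, 29.5, 30.0, 22.5 and 45.9 CPM in replicates 6 to 10. Control replicates 1 to 5 thus stood above the other control muscles without overlap, whereas the secretome sets overlapped.

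Among muscles that received the same treatment, the markers differed between library ranges. All 10 had a higher mean in control libraries 1 to 5 than in control libraries 6 to 10, and in secretome libraries 16 to 20 than in secretome libraries 11 to 15. The share of all genes with such a higher mean was not counted, so this direction is not shown to be particular to the markers. All 8 macrophage markers did the same in both treatments, against 1 and 4 of the 10 endothelial markers. In control muscle the values did not overlap for 6 of the 10 markers, namely Pdgfra, Cd34, Pi16, Clec3b, Gsn and Hic1, with the earlier libraries higher, as for 2.67% of all genes. In secretome muscle, libraries 16 to 20 were higher without overlap for 4 of the 10, Pdgfra, Pi16, Clec3b and Gsn, as for 1.34% of all genes. The ratios of means in control muscle were 3.45 for Pi16, 2.75 for Dpp4, 2.37 for Gsn, 2.34 for Cd34, 2.28 for Clec3b, 2.18 for Hic1, 2.07 for Pdgfra, 1.93 for Osr1, 1.27 for Ly6a and 1.10 for Pdgfrb. In secretome muscle they ran from 1.05 for Pdgfrb to 2.16 for Pi16. These ranges were set from the library numbers and the Ttn share, so they are not groups of the study.

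Pi16 gave the widest step between the ranges. Its levels were 27.7, 35.7, 26.6, 26.2 and 18.2 CPM in control replicates 1 to 5 and 6.22, 5.35, 8.66, 13.3 and 5.40 CPM in control replicates 6 to 10. In secretome muscle they were 5.16, 4.94, 7.10, 8.42 and 9.59 CPM in replicates 1 to 5 and 12.3, 9.96, 17.02, 16.1 and 20.7 CPM in replicates 6 to 10. The lower sets of both treatments overlapped, and each upper set lay above the lower set of its own treatment.

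Dpp4 did not follow the ranges muscle by muscle. It reached 9.72, 10.7 and 9.63 CPM in control replicates 1, 4 and 5, while control replicates 2 and 3 were at 1.43 and 2.19 CPM, as low as most of control replicates 6 to 10, which were at 1.76, 1.43, 2.31, 2.16 and 4.58 CPM. In secretome muscle it ran from 1.70 to 4.62 CPM in replicates 1 to 5 and from 1.83 to 6.68 CPM in replicates 6 to 10. The control group therefore held 3 muscles above every secretome muscle and 6 muscles at 2.31 CPM or less.

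Sums over markers of other cell types also differed between these ranges. Summed over the 10 markers, the level was 1081 ± 175 CPM in control libraries 1 to 5, 489.7 ± 126 CPM in control libraries 6 to 10, 430.7 ± 61.9 CPM in secretome libraries 11 to 15 and 711.9 ± 77.8 CPM in secretome libraries 16 to 20 (SD, n = 5 each). Gsn made up most of this sum. The 8 muscle fiber genes summed to 177773, 328777, 322924 and 276642 CPM in these sets. The largest part of each sum was Ttn, at 82407, 203823, 204015 and 149451 CPM, whose share of counts helped to set the ranges. Of the 8 fiber genes, 2 had a higher mean in control libraries 1 to 5 than in control libraries 6 to 10, and 6 had a higher mean in secretome libraries 16 to 20 than in secretome libraries 11 to 15, Ckm (16520 against 14445 CPM) and Acta1 (22520 against 18561 CPM) among them. The 8 macrophage markers summed to 162 ± 60.1, 107 ± 36.4, 66.6 ± 12.8 and 126 ± 47.5 CPM, and the 10 endothelial markers to 271 ± 34.2, 365 ± 59.4, 305 ± 43.6 and 291 ± 46.4 CPM. Their part in the marker values was not tested. The macrophage sum was higher in the sets where the progenitor and fibroblast sum was higher, within each treatment, while pericyte and endothelial sums were lower in control libraries 1 to 5 than in control libraries 6 to 10, by ratios of 0.857 and 0.742. Abcc9 was the largest part of the pericyte sum, at 283 and 400 CPM in these 2 control sets. Of the 9 tested pericyte and smooth muscle genes, 5 had a higher mean in control libraries 1 to 5, and of the 10 endothelial genes 1 did.

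**Figure D3:**
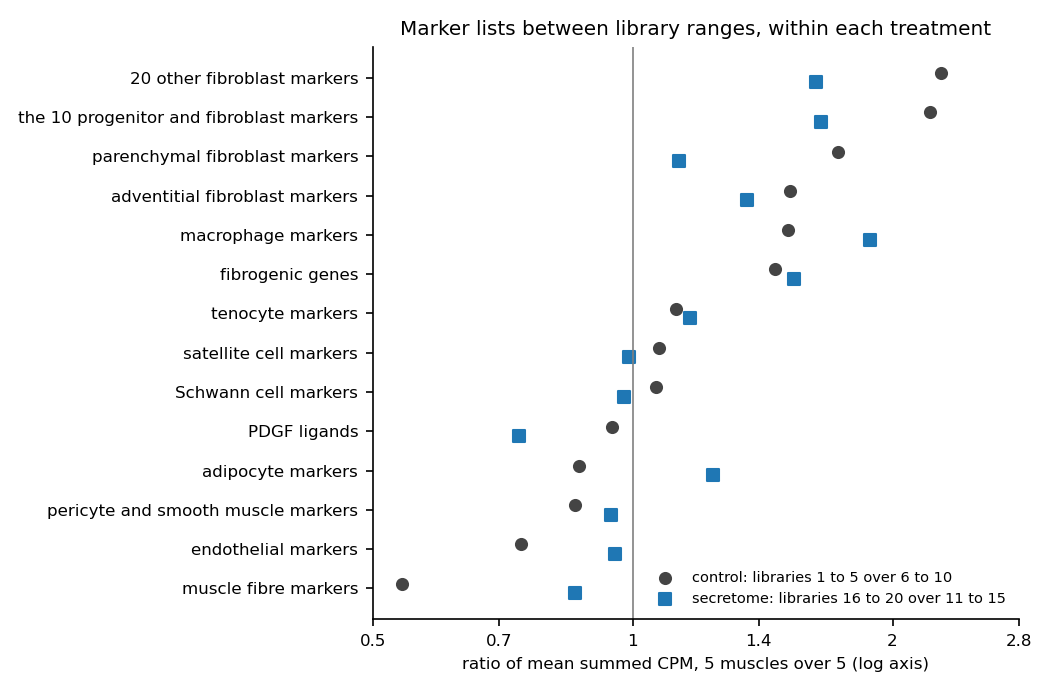
Ratio of the mean summed CPM of marker lists between library ranges within a treatment (log axis), circles for control libraries 1 to 5 over 6 to 10 and squares for secretome libraries 16 to 20 over 11 to 15, each of 5 muscles over 5. The early response, neutrophil, lymphocyte and Ly6a family lists are not drawn. The neutrophil ratios were 2.06 and 3.07, with sums of 1.46 to 110 CPM in secretome libraries 16 to 20. The 10 markers lie at 2.21 and 1.65 and the 20 other fibroblast markers at 2.28 and 1.63. The muscle fiber markers, a sum with Ttn as its largest part, lie at 0.541 and 0.857. Of these 8 fiber genes, 6 had a higher mean in secretome libraries 16 to 20 than in 11 to 15. The adipocyte list lies at 0.867 in control, but its sum is mostly Plin4, and 6 of its 8 genes had a higher mean in control libraries 1 to 5. The pericyte and smooth muscle list lies at 0.857 in control, with Abcc9 as its largest part. Of its 9 tested genes, 5 had a higher mean in control libraries 1 to 5.

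A further list of 20 fibroblast genes stood beside the 10 markers. All 20 were below 0 over the 20 muscles, with a median of -0.29, and 4 were lower at an unadjusted p under 0.05, beside 55.9% of all genes below 0 and 9.21% lower at that p, but 0 passed the false discovery rate in edgeR. The 2 with the smallest p were Fbln1, a matrix glycoprotein, at -0.58 (SE 0.200, adjusted p = 0.193) and Scara5, a ferritin receptor of stromal cells, at -0.60 (SE 0.253, adjusted p = 0.267) by edgeR's quasi-likelihood test. Within libraries 6 to 15 the 20 genes split into 10 below and 10 above 0, with a median of 0.01, and the 3 with an unadjusted p under 0.05 were higher with secretome, beside 5.02% of all genes called higher at that p. Those 3, named after their values were seen, were Mme, a neutral endopeptidase, at 0.58 (SE 0.180), Lum, the matrix proteoglycan lumican, at 0.60 (SE 0.197) and Fap, a serine peptidase of fibroblasts, at 0.38 (SE 0.171). Their adjusted p lay between 0.415 and 0.498 with edgeR.

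Genes of fibroblasts in particular positions were also counted, and Dpt, Mfap5, Fbn1 and Lum among them also belong to the 20 genes above. Of 9 tested genes of fibroblasts around vessels, 7 were below 0 over all muscles and 3 within libraries 6 to 15, 0 had an unadjusted p under 0.05 over all muscles, and 1 was higher at that p within libraries 6 to 15 (Sema3c, a semaphorin, named after its value was seen). The nearest were Efhd1 at -0.46 (SE 0.263) and Igfbp6, which binds insulin-like growth factors, at -0.47 (SE 0.294). Of 10 genes of fibroblasts between the fibers, all 10 were below 0 over all muscles, 3 of them at an unadjusted p under 0.05, beside 9.21% of all genes lower at that p, among them Vwa1 at -0.44 (SE 0.161) and Apod, a lipid carrier, at -0.66 (SE 0.250), while 5 were below and 5 above 0 within libraries 6 to 15. There, 0 were lower and 2 higher at an unadjusted p under 0.05, beside 4.88% and 5.02% of all genes, and these were Lum at 0.60 (SE 0.197) and Ccl11, an eosinophil chemokine, at 0.47 (SE 0.155), both named after their values were seen. No gene of either list passed the false discovery rate with edgeR.

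On the ligand side of the PDGF receptors, 1 of 4 genes was below 0 over all muscles and 0 had an unadjusted p under 0.05. Pdgfd, a ligand of PDGF receptor beta, was at 0.34 (SE 0.239) and Pdgfa, a ligand of PDGF receptor alpha, at -0.21 (SE 0.181). Among 11 tested genes of fibrogenic activation, 6 were below 0 over all muscles, and 3 were lower and 1 higher at an unadjusted p under 0.05, beside 9.21% and 6.52% of all genes. Acta2, the smooth muscle actin of myofibroblasts and vessels, was at -0.54 (SE 0.171, adjusted p = 0.166) and Tgfb1, the main profibrotic cytokine, at -0.59 (SE 0.209, adjusted p = 0.203) by edgeR's quasi-likelihood test. The 1 higher gene, named after its value was seen, was Ccn2 at 0.47 (SE 0.192). Within libraries 6 to 15 all 11 were below 0, 2 of them at an unadjusted p under 0.05, with a median of -0.30, beside 52% of all genes below 0 and 4.88% lower at that p. Between libraries 16 to 20 and 1 to 5, 5 of the 11 were below 0 and 6 above 0, beside 54.6% of all genes below 0. Of 6 tested early response genes of activated fibroblasts, 4 were below 0 and 0 had an unadjusted p under 0.05, with Has2, a hyaluronan synthase, at -0.34 (SE 0.354) and Ccl7, a chemokine for monocytes, at -0.52 (SE 0.589).

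Markers of neighboring cell types were counted in the same way, beside 9.21% of all genes lower at an unadjusted p under 0.05 over all muscles and 4.88% within libraries 6 to 15, and 55.9% and 52% below 0. All 8 macrophage markers were below 0 over all muscles (4 with an unadjusted p under 0.05) and within libraries 6 to 15 (5 with an unadjusted p under 0.05), with Csf1r, the receptor for colony-stimulating factor, at -0.76 (SE 0.216) and Adgre1, which encodes F4/80, at -0.82 (SE 0.240) over all muscles. All 8 adipocyte markers were below 0 in both comparisons, 2 and 3 of them with an unadjusted p under 0.05, with Cfd, which encodes adipsin, at -0.87 (SE 0.282) and Retn, which encodes resistin, at -0.91 (SE 0.316) over all muscles. Of 9 tested pericyte and smooth muscle genes, 7 were below 0 over all muscles, with Tagln, an actin-binding protein, at -0.40 (SE 0.141). Of 10 endothelial genes, 8 were below 0 over all muscles. Vwf, the von Willebrand factor, was at -0.31 (SE 0.145) there and Egfl7 at -0.31 (SE 0.168). Within libraries 6 to 15, 6 of the 9 pericyte and smooth muscle genes were below 0, 1 with an unadjusted p under 0.05. The endothelial genes there were below 0 in 9 of 10 cases, 2 of them at that p. Ly6e, a relative of Ly6a, was at -0.70 over all muscles (SE 0.145, adjusted p = 0.105) and at -0.61 within libraries 6 to 15 (SE 0.108, adjusted p = 0.177) by edgeR's quasi-likelihood test. Over all muscles, 5 of 6 tenocyte genes (Comp at -0.63, SE 0.429, and Scx at -0.36, SE 0.276), 6 of 6 Schwann cell genes (Mbp at -0.21, SE 0.128, and Pmp22 at -0.22, SE 0.139) and 3 of 5 tested satellite cell genes (Heyl at -0.47, SE 0.236, and Pax7 at -0.17, SE 0.215) were below 0. Of 4 tested neutrophil genes 1 was below 0, with S100a9 at 1.37 (SE 0.872) and S100a8 at 1.33 (SE 0.864). Of 8 muscle fiber genes 2 were, with Pvalb at -0.55 (SE 0.245) and Myh4 at 0.35 (SE 0.173). Within libraries 6 to 15, 6 of 6 tenocyte, 5 of 6 Schwann cell and 2 of 5 satellite cell genes were below 0. So were 2 of 4 neutrophil and 5 of 8 muscle fiber genes there. All 4 tested genes of the Ly6a family were below 0 in both comparisons, with Ly6c2 at -1.08 (SE 0.512) over all muscles. No gene of these lists passed the false discovery rate with edgeR, and whether their values differ from those of the 10 markers was not tested.

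The muscles with high Pdgfra were not the same as those with a high level of every other marker. Over the 20 muscles the 45 pairs of markers had Pearson's r above 0 in 43 cases on the log2 CPM scale, whereas within libraries 6 to 15 only 21 of 45 did. Since the muscles fall into ranges by library number, relations with Pdgfra are given within libraries 6 to 15 (n = 10 muscles, 9 relations, two-sided permutation tests with 100000 resamples). Tests of these relations over all 20 muscles were also computed and are not reported here. The r over all 20 muscles enters only the count of pairs above and the ranking of likeness further on. Gsn followed Pdgfra with r = 0.894 (permutation p = 0.00039, adjusted p = 0.00351) and Spearman's rho = 0.867 (permutation p = 0.00211, adjusted p = 0.0127). Without the 2 muscles farthest from the median of Pdgfra, r was 0.858 for Gsn. Hic1 followed with r = 0.764 (permutation p = 0.00519, adjusted p = 0.0234) and rho = 0.855 (permutation p = 0.00283, adjusted p = 0.0127), and r was 0.622 without those muscles.

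The other 7 relations with Pdgfra did not pass the adjustment. Clec3b had r = 0.642 (permutation p = 0.0465, adjusted p = 0.139) and rho = 0.552 (permutation p = 0.105, adjusted p = 0.314), and r was 0.372 without the 2 farthest muscles. The r of the remaining 6 lay between -0.383 for Dpp4 and 0.176 for Osr1, with adjusted p of 0.618 or more by permutation. Pdgfra and Pdgfrb, which encode receptors of one ligand family, had r = -0.184 (permutation p = 0.609, adjusted p = 0.796) and rho = -0.152 (permutation p = 0.682, adjusted p = 0.799). Within a treatment, n = 5 was too few for a relation to be tested.

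**Figure D4:**
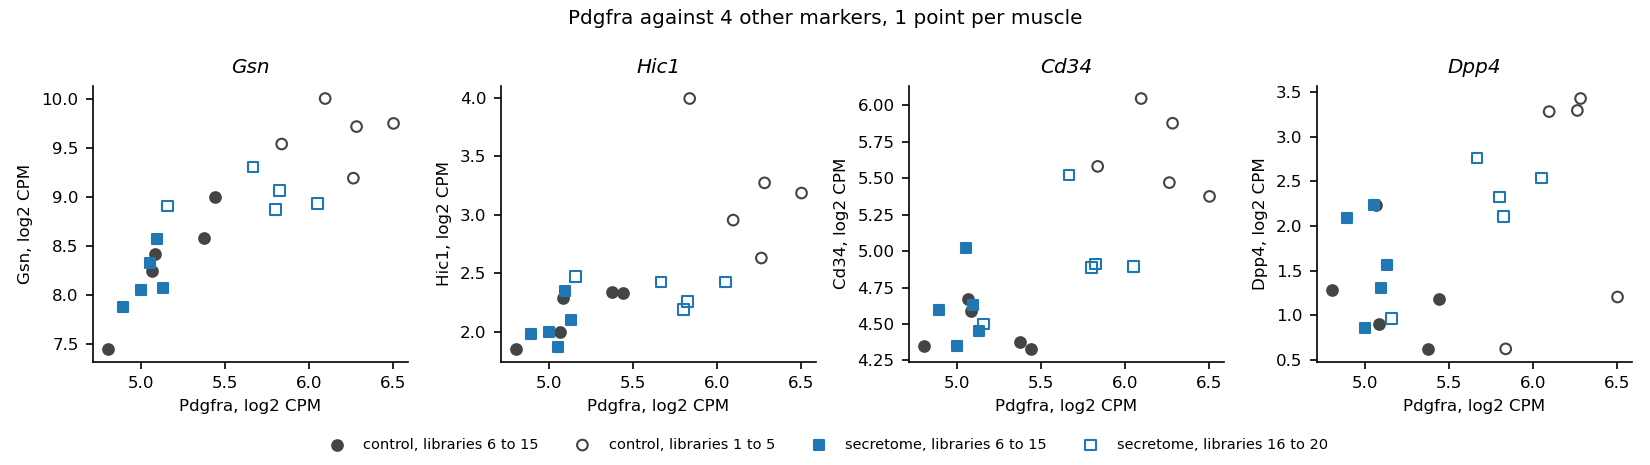
Log2 CPM of Gsn, Hic1, Cd34 and Dpp4 against log2 CPM of Pdgfra, 1 point per muscle, filled for libraries 6 to 15 and open for libraries 1 to 5 and 16 to 20. The filled points rise together for Gsn (r = 0.894) and Hic1 (r = 0.764) and not for Dpp4 (r = -0.383).

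Likeness to Pdgfra was also ranked over 13171 named genes that averaged 1 CPM or more, as a description over 20 muscles that share the library ranges. The 5 most alike were Ddr2, a collagen receptor, with r = 0.93, Dpep1, a membrane dipeptidase, with 0.92, Pla1a, a secreted phospholipase, with 0.92, Rab7b with 0.90 and Egfr, the receptor for epidermal growth factor, with 0.90. Within libraries 6 to 15 the r of these 5 genes with Pdgfra was lower, at 0.684, 0.720, 0.220, 0.585 and 0.362 in that order. Among the other markers Gsn ranked 14 and Clec3b 31, followed by Pi16 at 142, Cd34 at 144, Hic1 at 295, Osr1 at 351, Ly6a at 977, Dpp4 at 1186 and Pdgfrb at 3984. The genes most like Dpp4 were Abca8b, a lipid transporter, with r = 0.90, Nova1, an RNA-binding protein, with 0.89, Mme with 0.88, and Mrps22 and Osgepl1 with 0.86 each. Within libraries 6 to 15 their r with Dpp4 was 0.722, 0.433, 0.607, 0.755 and 0.449 in that order. Mme is itself 1 of the 20 other fibroblast genes, and Pdgfra ranked 1617 in its likeness to Dpp4.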

How the data were processed

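Whole quadriceps RNA from 20 mice was sequenced by the authors as stranded, paired-end total RNA libraries. Per the submitters' processing notes, cutadapt 1.16, STAR 2.7.9a, featureCounts 1.6.3 and DESeq2 1.34.0 were used with mouse build GRCm39. The deposited values are whole-number counts per gene without normalization, in 1 column per mouse, and the depth was 13286983 to 22987237 counts. Although the extraction label speaks of myotubes, source and tissue labels give quadriceps.

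Symbols and exon lengths came from GENCODE M21 (GRCm38), the annotation available here, and at least 98.6% of the counts of each library lay on genes with a symbol. The filterByExpr function of edgeR 4.0.16 in R 4.3.3 retained 14471 of 55416 genes, and libraries were scaled by TMM. Treatments were compared with edgeR's robust quasi-likelihood F-test and Benjamini-Hochberg adjustment over all genes tested at a 5% false discovery rate, over all muscles, within libraries 6 to 15, between libraries 16 to 20 and 1 to 5, and as the interaction of these. Log2 CPM used a prior count of 2. Each standard error was obtained by dividing the fitted log2 value by the square root of its F statistic. The fits were tested on simulated data. Relations and depth were tested in Python 3.11.15 with scipy 1.17.1. Same-numbered control and secretome muscles did not deviate together (correlations -0.24 to 0.221), so they were not paired.

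The 10 markers and every other list were chosen with earlier results of these data known. Named besides the markers were the 2 genes with the smallest p over all muscles in each list and the 5 genes most like Pdgfra and Dpp4. Alternatives were DESeq2 1.42.0, RLE scaling, no filter or a filter on libraries 6 to 15 alone, quality-weighted voom (limma 3.58.1), the replicate block, a term for 3 library ranges, and each muscle left out in turn.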

Additional observations from a re-analysis of the deposited data

Results flagged for a closer look

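Ly6a was at 5.96 log2 CPM in control replicate 3, where the next highest control muscle was at 5.10. That gap made up 0.522 of the range of the 10 control muscles, past Dixon's limit for a single distant value. Of the 20 groups of 10 muscles examined, 10 markers in 2 treatments, this was the 1 flag, and about 1 in 20 groups is flagged by chance. Without control replicate 3 the log2 fold change of Ly6a over all muscles was -0.05 in place of -0.21. In the same muscle Pdgfra (90.6 CPM) and Osr1 (8.49 CPM) were also the highest of the 20 muscles, whereas Hic1 (9.00 CPM) and Pi16 (26.6 CPM) lay between other control libraries 1 to 5. The cause was not tested.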

How the results depend on the processing

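No marker passed the 5% false discovery rate under any alternative run, and the count of all genes that did varied widely. Over all muscles it was 1 gene with edgeR, 213 with DESeq2 (67 higher, 146 lower), 3 with voom, and 0 with the replicate block and with the term for 3 library ranges. It ran from 0 to 13 when 1 muscle was left out, highest without control replicate 5. Of the markers, 2 had an unadjusted p under 0.05, but 1 with DESeq2, 1 without the filter, 0 with the replicate block and 0 with the 3 ranges. Leaving out 1 muscle gave 1 to 5, with 5 without control replicate 8 or secretome replicate 10, 4 without control replicate 10, and 1 without control replicates 2 or 4 or secretome replicates 2, 5, 7 or 8. Their median then ran from -0.45 to -0.29. Dpp4 turned to 0.076 with the replicate block and 0.10 with voom. The term for 3 library ranges turned Cd34 to 0.16, Dpp4 to 0.36 and Osr1 to 0.084. That fit compared treatments only inside the range that held both, so it is not a separate check over all muscles. The block used numbers that did not pair the muscles. The remaining 255 of 260 marker values kept their direction and stayed short of the threshold.

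Within libraries 6 to 15, DESeq2 called 37 genes (11 higher, 26 lower) against 0 with edgeR. Leaving out 1 muscle gave 0 to 1 markers with an unadjusted p under 0.05 (1 without control replicates 8, 9 or 10 or secretome replicate 2) and a median from -0.17 to -0.03. Pi16 then ran from -0.27 to 0.16 and Osr1 from -0.039 to 0.22. No other marker changed direction in these 10 muscles. For the difference between ranges, DESeq2 called 180 genes (77 higher, 103 lower) against 8, leaving out 1 muscle gave 1 to 9 genes, and 2 to 4 markers had an unadjusted p under 0.05 (4 without control replicates 2 or 9). The cause of these shifts was not tested. Dpp4, with as few as 23 counts in a library, had the widest errors.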
